A study of Mus musculus with 34 samples.

Results

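The genes that lie beside Myt1l on mouse chromosome 12 were described across 3 brain regions of mice labelled heterozygous (HT) or wild type (WT) for Myt1l. Members were chosen by position alone. They are the rows of the deposited gene table whose gene start in the GENCODE M21 annotation of GRCm38 lies on chromosome 12 within about 10 Mb of Myt1l on either side, without Myt1l itself and 1 further row that was not used here. The rule gave 88 genes of 18548 in the table, 64 of them protein coding and 24 of other biotypes. The window holds 360 annotated genes, 75 of them protein coding, and the table lists only genes that reached at least 10.2 in some library. Start here is the lower coordinate of the annotated gene, whatever its strand. Of the 88, 44 start proximal of Myt1l, 43 start distal of it and 1, the antisense RNA C630031E19Rik, starts inside it. The first member is Gm49700 (start 20615343) and the last is Etv1 (start 38779380). The genes just outside the window in the table are Gm49769 (start 19434529) and Arl4a (start 40005447).

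The protein made from Myt1l binds DNA through zinc fingers in neurons and is known mainly for repressing genes of other lineages. Its neighbours are of mixed function and include transcription factors (Sox11, Id2, Etv1), membrane traffic proteins (Trappc12, Eipr1, Cog5), signalling proteins (Prkar2b, Dgkb, Kidins220), matrix and transport proteins (Pxdn, Lamb1, Slc26a4) and the interferon-induced pair Rsad2 and Cmpk2. Genes close to an edited locus are inherited with it, and an insertion, deletion or change of regulatory DNA can alter the RNA of its neighbours. The comparison here therefore asks whether linked genes differed between HT and WT more than genes elsewhere did, and whether that depended on distance.

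Libraries were made from total RNA with a TruSeq version 2 kit, which does not mark strand, from untreated C57BL/6J males aged 56 days after birth. Prefrontal cortex (PFC) gave 5 HT and 6 WT libraries, hippocampus (Hip) 5 and 6, and striatum (Str) 6 and 6, 34 in all. The labels do not describe the Myt1l allele, so what the HT libraries model at this locus is not known here, and they do not say that libraries came from separate animals. The p-values therefore measure the spread between these libraries, which may be technical in part. In bulk tissue, fewer cells of a type and less RNA per cell cannot be told apart.

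Normalized counts summed to 25786041 to 29798959 per library, and the depth before scaling was not used because whole reads could not be recovered. The marker lists for PFC, hippocampus and striatum were each highest in their own region in every library. Column codes recur between regions, and 1 code, 31-67M, stands on PFC WT replicate 6 but also on Hip HT replicate 1 and Str HT replicate 1. The labels were followed, and values without these 3 libraries are given for several members below. The medians by distance use all libraries. Myt1l itself was at 6820 ± 456 (SD, n = 5) in PFC HT and 6650 ± 842 (SD, n = 6) in PFC WT, 6896 ± 385 and 6216 ± 594 in hippocampus, and 8162 ± 954 and 7675 ± 552 (SD, n = 6 each) in striatum. Its log2 difference averaged over the regions was 0.09 (SE 0.05, adjusted p = 0.529 with limma), so its RNA level did not check the HT labels, and HT and WT below are the labels' words.

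No neighbour of Myt1l passed the test between HT and WT in any region. The test was limma on log2(normalized count + 1), fitted on all genes with a mean of at least 10 and adjusted by the Benjamini-Hochberg method over all of them at 0.05. In PFC 0 of 81 members tested were called, against 0.0% of all 16667 genes, and 1 member had an unadjusted p under 0.05 (1.23% against 5.0% of all genes). In hippocampus 0 of 80 were called, against 0.0% of 16820 genes, and 7 had an unadjusted p under 0.05 (8.75% against 6.81%). In striatum 0 of 79 were called, against 0.0% of 17054 genes, and 2 had an unadjusted p under 0.05 (2.53% against 5.89%). The average of the 3 regional differences, fitted on all 34 libraries, called 0 of 82 members and 16 of 17051 genes (0.0938%). There 5 members had an unadjusted p under 0.05, all lower in HT, which is 6.10% of the members, against 9.37% of all genes in either direction and 5.3% lower. Of the 88 members, 74 were tested in all 4 comparisons and 3 in none. The smallest adjusted p of a member was 0.977 in PFC, 0.353 in hippocampus, 0.777 in striatum and 0.372 in the average.

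The size of the differences was also near that of other genes. The median absolute log2 difference of the members was 0.08 in PFC, 0.08 in hippocampus, 0.06 in striatum and 0.05 in the average, against 0.06, 0.07, 0.07 and 0.05 over all genes tested. The 95% interval of the difference lay within ±0.5 on the log2 scale for 56 of 81 members in PFC, 57 of 80 in hippocampus, 59 of 79 in striatum and 68 of 82 in the average. It lay within ±1 for 76, 70, 75 and 81 of them. For the rest the precision does not bound the difference within that size. HT and WT libraries did not overlap for 0 members in PFC (0.462% of all genes), 1 in hippocampus (0.678%), the antisense RNA Gm20208, and 0 in striatum (0.399%).

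**Figure D1:**
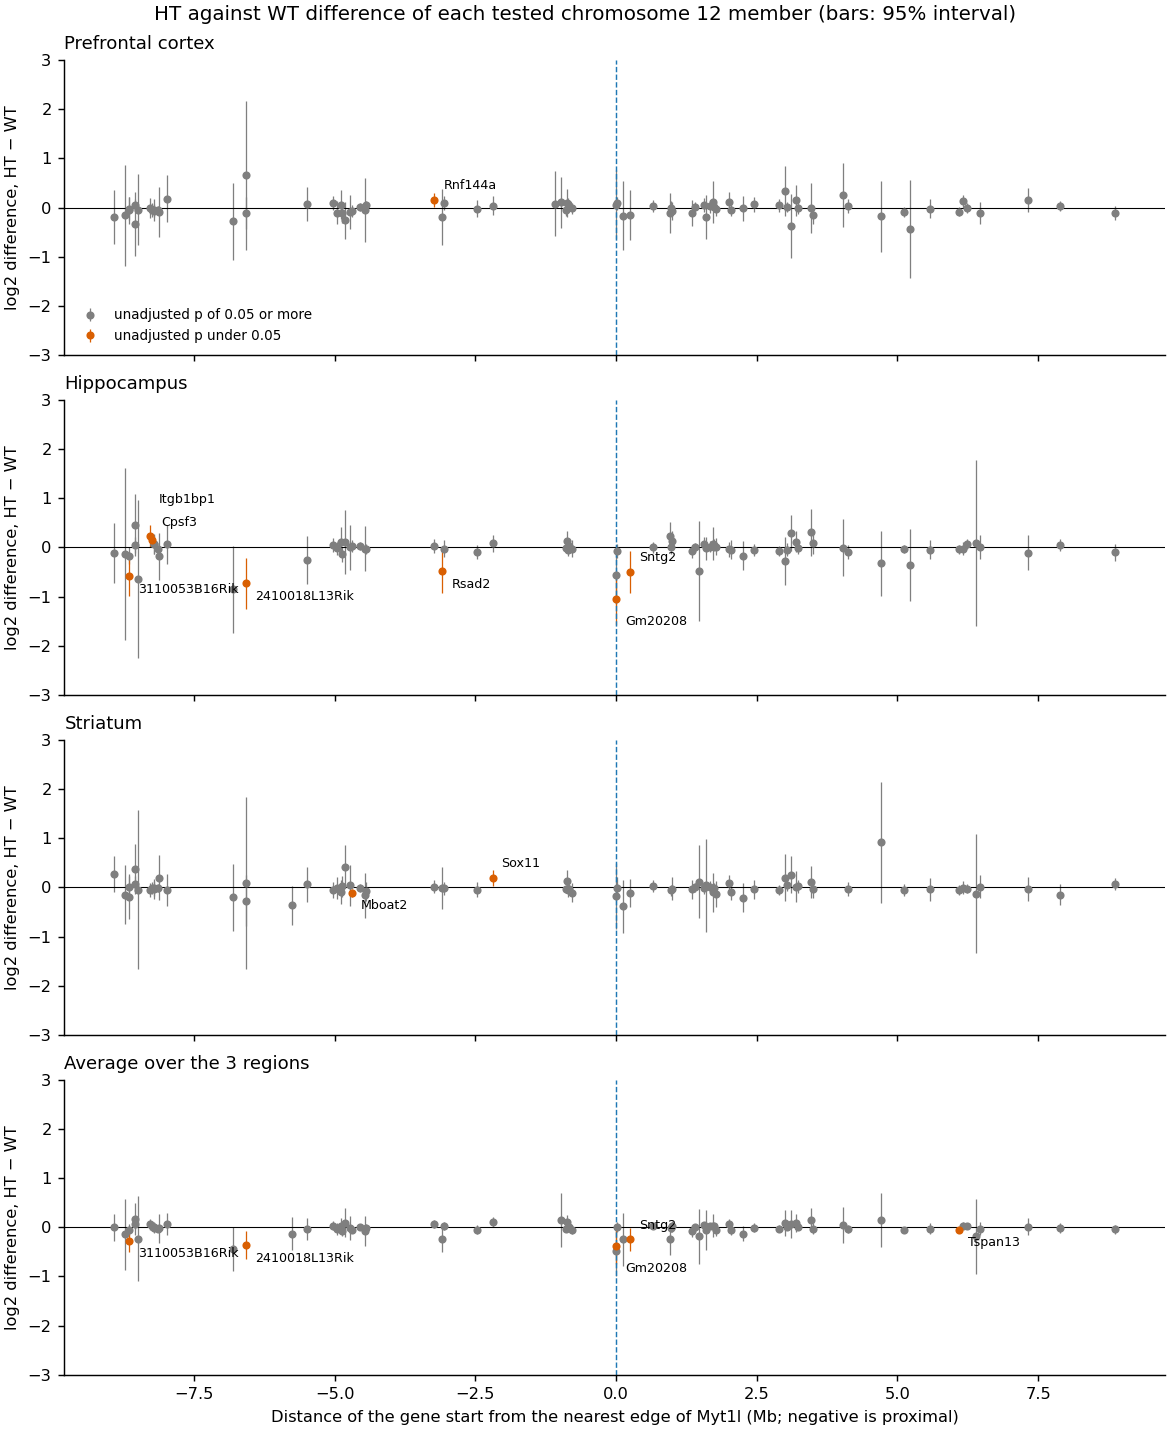
Log2 difference between HT and WT for each tested member (vertical axis, bars are 95% intervals) against the distance of its start from the nearest edge of Myt1l in Mb (horizontal axis, negative is proximal, dashed line at Myt1l), in PFC, hippocampus, striatum and the average of the 3. Orange marks an unadjusted p under 0.05, and none of the points passed the adjusted threshold.

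Distance from Myt1l did not order the differences in the same way in the 3 regions. Members were placed in 4 bins, with 15 up to 1 Mb from the nearest edge of Myt1l, 16 from 1 to 2.5 Mb, 23 from 2.5 to 5 Mb and 34 beyond 5 Mb. In the average over regions the median size of limma's moderated t was 0.950 in the nearest bin, then 0.845, 0.609 and 0.746, against 0.788 over all genes and 0.761 over the other chromosome 12 genes. The nearest bin was also the highest in hippocampus, at 1.1 against 0.758 over all genes. In striatum it was the highest of the 4 bins too, at 0.747, beside 0.732 over all genes and 0.810 over the other chromosome 12 genes. In PFC it was 0.595, below the 0.703 of all genes. No p-value belongs to these medians, since genes are not replicates. An unadjusted p under 0.05 in the average came from 2 of 15 members in the nearest bin (Gm20208 and Sntg2), 0 of 15 and 0 of 23 in the next ones, and 3 of 29 in the farthest (2410018L13Rik, 3110053B16Rik and Tspan13). On the proximal side the share was 3 of 40 and on the distal side 2 of 41. By biotype, 2 of 63 protein coding members and 3 of 19 others had such a p (3.17% and 15.8%, against 9.65% of all protein coding genes and 7.38% of all other biotypes).

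**Figure D2:**
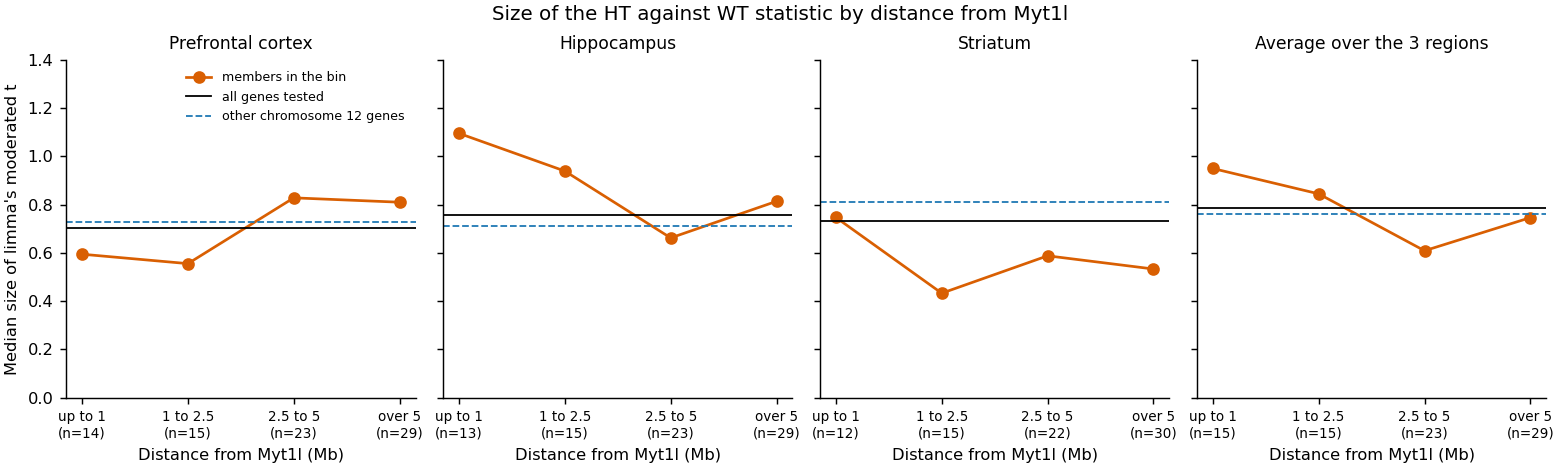
Median size of limma's moderated t for HT against WT (vertical axis) by distance of the members from Myt1l in Mb (horizontal axis, n is the number tested), in PFC, hippocampus, striatum and the average. The solid line is the median over all genes tested and the dashed line that over other chromosome 12 genes. The nearest bin lies above both lines in hippocampus and the average, and below both in PFC.

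In hippocampus the largest difference among the members was that of Gm20208, a noncoding transcript on the strand opposite Myt1l. It lies across the first bases of Myt1l, at chr12:29526906-29534891 on the minus strand. Its lower coordinate is 1478 bases proximal of Myt1l, its own transcription start is inside Myt1l, and 633 bases of its exons (36.7%) overlap exons of Myt1l. With a kit that does not mark strand, reads of the overlap cannot be told apart from those of Myt1l. In Hip HT libraries Gm20208 was at 10.4, 14.8, 15.7, 24.7 and 27.4 normalized counts, and in Hip WT at 33.4 at the lowest, 36.7 at the median and 45.2 at the highest. Every Hip HT library was below every Hip WT library. The log2 difference was -1.05 (SE 0.25, unadjusted p = 0.000636, adjusted p = 0.353 with limma). In PFC HT it was at 10.8 to 19.1 and in PFC WT at 4.83 to 18.3, and in striatum at 15.5 to 37.6 and 14 to 39.9, so the genotypes overlapped in both. The averaged difference was -0.39 (SE 0.18, adjusted p = 0.479). Without the libraries coded 31-67M the hippocampus difference was -1.01 (adjusted p = 0.337), and among libraries whose code begins with 35 it was -0.69 (adjusted p = 0.826). Over all alternatives run it was -1.21 to -0.69 with an adjusted p of 0.224 to 0.826.

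Like Gm20208, the other proximal neighbours within 1 Mb did not pass the test. Eipr1, a protein of endosome recycling that starts 0.777 Mb away, was at 1015 to 1195 in PFC HT and 1014 to 1114 in PFC WT, and its averaged log2 difference was -0.05 (SE 0.05). Trappc12, a subunit of the TRAPP III tethering complex, had an averaged difference of 0.00 (SE 0.03) and spanned 1381 to 1679 over the 2 genotypes of the 3 regions. Adi1, an enzyme of methionine salvage, had -0.01 (SE 0.04). Rnaseh1, which removes RNA from RNA-DNA hybrids, was at 166 to 191 in Hip HT and 151 to 187 in Hip WT and its averaged difference was 0.11 (SE 0.07, adjusted p = 0.623). Values of HT and WT overlapped for these 4 genes in every region.

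On the distal side Pxdn starts 14395 bases beyond the end of Myt1l and encodes peroxidasin, which cross-links collagen IV. It was at 3281 to 4178 in PFC HT and 3141 to 3742 in PFC WT, at 3337 to 4075 and 3624 to 4500 in hippocampus, and at 1699 to 2837 and 1963 to 2538 in striatum, with an averaged log2 difference of 0.00 (SE 0.05). Tmem18, a protein of the nuclear membrane, had 0.02 (SE 0.03). Both genes overlapped between HT and WT in each region.

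Sntg2, the syntrophin gamma 2 adaptor of the dystrophin complex, starts 0.251 Mb distal. In hippocampus its HT libraries were at 24.1, 24.6, 33.6, 36.9 and 49.7 and its WT libraries at 40.8, 46.2 and 53.1 (lowest, median, highest). Of the 5 HT libraries, 4 were below every WT library and 1 lay within the WT range. The log2 difference was -0.49 (SE 0.20, unadjusted p = 0.027, adjusted p = 0.719). It was -0.15 (SE 0.24) in PFC, -0.12 (SE 0.13) in striatum and -0.25 (SE 0.12, adjusted p = 0.488) in the average. C630031E19Rik, the antisense RNA that starts inside Myt1l, was at 19.6, 20.8, 31, 43.1 and 57.5 in Hip HT and at 31.2, 51.1 and 69.0 in Hip WT, a log2 difference of -0.56 (SE 0.29, adjusted p = 0.764) with overlap. In striatum it was at 4.56 to 9.10 in HT and 3.25 to 21.4 in WT, and in PFC at 0 to 5.98 and 1.17 to 6.06. Its averaged log2 difference of -0.49 (SE 0.24, adjusted p = 0.541) was the largest in size of the members in the average. Without the libraries coded 31-67M the hippocampus difference was -0.77 (adjusted p = 0.502) for C630031E19Rik and -0.39 (adjusted p = 0.624) for Sntg2.

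**Figure D3:**
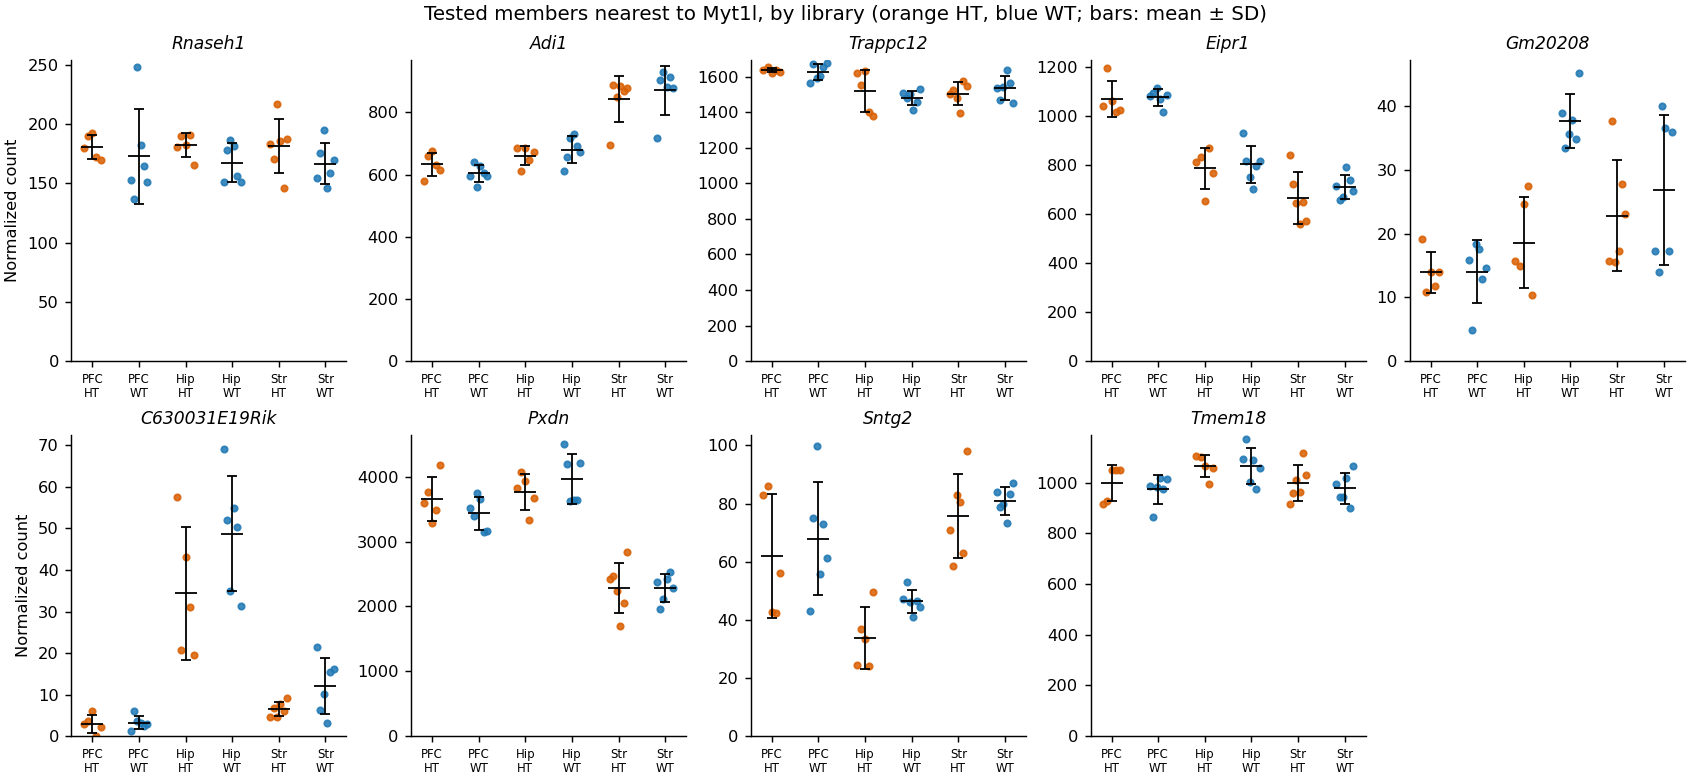
Normalized counts of 9 of the tested members nearest to Myt1l in every library (vertical axis from 0, points; orange HT, blue WT), by region and genotype (horizontal axis), with mean and SD as bars. Gm20208 in hippocampus is the only panel position where HT and WT points do not overlap.

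Beyond 5 Mb, the noncoding transcripts 2410018L13Rik and 3110053B16Rik had the smallest unadjusted p in the average. 2410018L13Rik, 6.57 Mb proximal, was at 29.2, 38.3, 52.3, 64.3 and 78.1 in Hip HT and at 54.8, 85.9 and 113 (lowest, median, highest) in Hip WT, so 2 of 5 HT libraries lay within the WT range. Its log2 difference was -0.73 (SE 0.24, adjusted p = 0.695) in hippocampus and -0.37 (SE 0.14, unadjusted p = 0.0127, adjusted p = 0.372) in the average. 3110053B16Rik, a transcribed pseudogene 8.65 Mb away, was at 34.9 to 60.6 in Hip HT and 52.6 to 85.9 in Hip WT, a log2 difference of -0.59 (SE 0.18, adjusted p = 0.661). Without the libraries coded 31-67M these hippocampus differences were -0.89 (adjusted p = 0.337) for 2410018L13Rik and -0.52 (adjusted p = 0.525) for 3110053B16Rik. Of the 31-base words of their transcripts, 58.5% and 56.6% also occur in other genes, so their counts are uncertain. More than 50% of such words were shared in 8 members, none of them protein coding, and under 10% in 56.

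Further protein coding members with small unadjusted p had differences below those of Sntg2. In PFC Rnf144a, an E3 ubiquitin ligase, was at 1082 to 1270 in HT and 910 to 1158 in WT (log2 0.15, SE 0.07, adjusted p = 0.977). In hippocampus Itgb1bp1, an integrin-binding adaptor, was at 394 to 522 and 307 to 467 (log2 0.23, SE 0.10, adjusted p = 0.727), and Cpsf3, the endonuclease of mRNA 3' end processing, which starts on the opposite strand beside it, was at 1042 to 1259 and 928 to 1166 (log2 0.15, SE 0.07, adjusted p = 0.727). In striatum Mboat2, a lysophospholipid acyltransferase, was at 1595 to 1728 and 1686 to 1923 (log2 -0.12, SE 0.04, adjusted p = 0.777), and Sox11, a neural transcription factor, at 781 to 1017 and 701 to 850 (log2 0.19, SE 0.08, adjusted p = 0.807). HT and WT overlapped for each of these genes. Without the libraries coded 31-67M the hippocampus difference was 0.26 for Itgb1bp1 (adjusted p = 0.551) and 0.17 for Cpsf3 (adjusted p = 0.544). Tspan13, a tetraspanin 6.09 Mb distal, had an averaged difference of -0.06 (SE 0.03, adjusted p = 0.522). Other members named by the rule on the smallest p in each direction were Bzw2, Cmpk2, Snx13 and Twistnb in PFC, Alkal2 in hippocampus, and Rrm2, Gm30124, Gm38699 and Pik3cg in striatum, all with an adjusted p of at least 0.774 with limma.

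**Figure D4:**
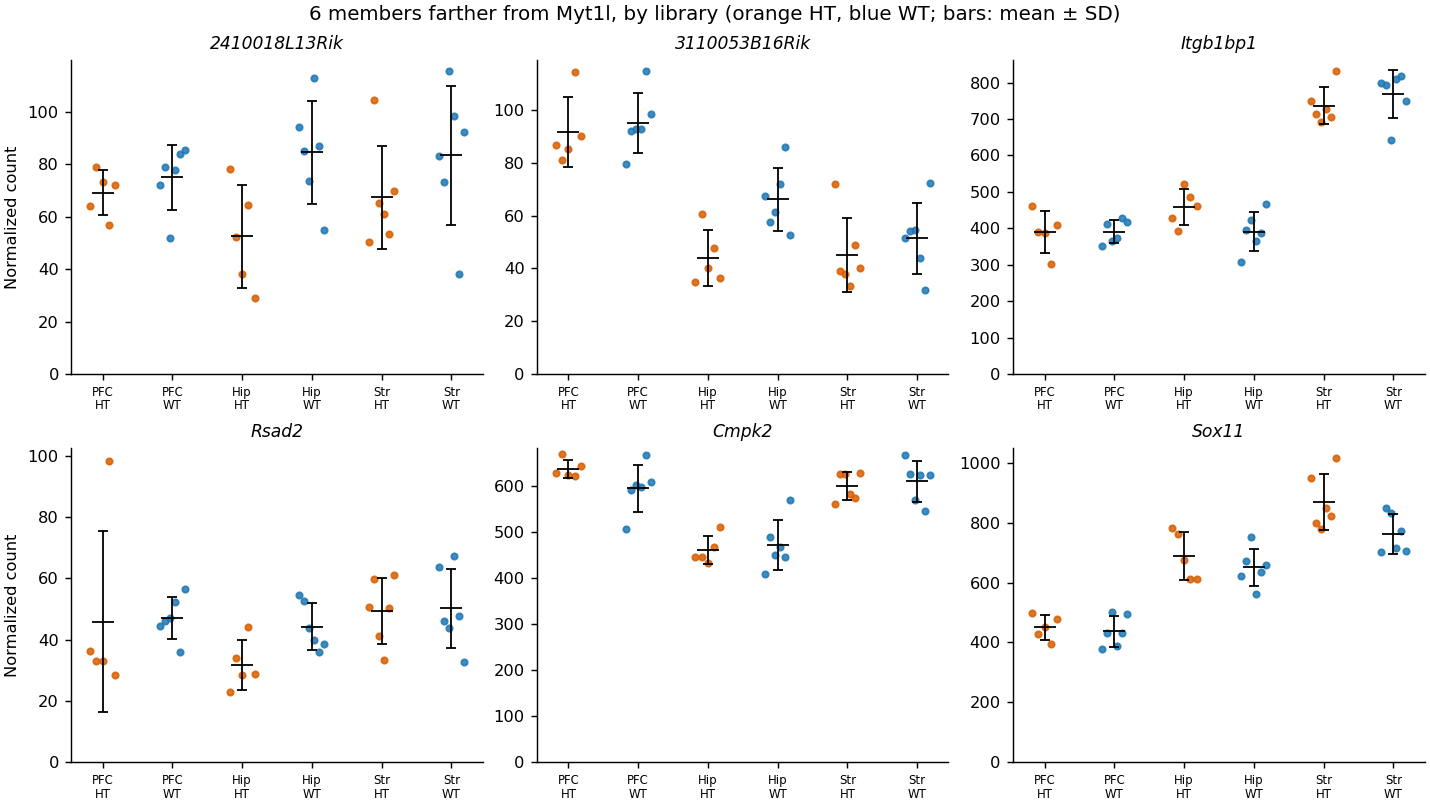
Normalized counts of 6 members that start over 2 Mb from Myt1l in every library (vertical axis from 0, points; orange HT, blue WT), by region and genotype (horizontal axis), with mean and SD as bars. HT and WT points overlap in every region for all 6, and 1 PFC HT library stands at 98.5 for Rsad2.

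Rsad2 (viperin, which makes an antiviral nucleotide) and Cmpk2 (a nucleotide kinase that supplies it) lie next to each other 3.09 and 3.06 Mb proximal of Myt1l and are induced together by interferon. The 250 bases before the RefSeq start of Rsad2 (GRCm38.p6, chr12:26456453-26456702, minus strand) hold 1 match to the interferon response word, which is GAAA, then any 2 bases, then GAAA, searched on both strands and shown in capitals as its reverse complement because it is the element known to answer interferon.
Rsad2 upstream: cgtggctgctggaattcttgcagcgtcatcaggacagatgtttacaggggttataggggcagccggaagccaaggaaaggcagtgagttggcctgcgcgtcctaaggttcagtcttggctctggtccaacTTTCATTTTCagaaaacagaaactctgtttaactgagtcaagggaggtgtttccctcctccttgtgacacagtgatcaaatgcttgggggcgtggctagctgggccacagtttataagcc
Such a match stood in 3.90% of the 77 member windows (Rps7, Rsad2 and Slc26a4) and in 2.98% of all 32851 windows of the same length. Rsad2 was at 22.9, 28.4, 28.7, 34 and 44.3 in Hip HT and at 35.9, 42.0 and 54.7 (lowest, median, highest) in Hip WT, so 4 of 5 HT libraries were below every WT library. The log2 difference was -0.49 (SE 0.20, unadjusted p = 0.029, adjusted p = 0.723). In PFC HT 4 libraries were at 28.5 to 36.4 and 1 at 98.5, beside 36.1 to 56.5 in WT, and in striatum the genotypes were at 33.2 to 61.0 and 32.8 to 67.3. Cmpk2 was at 431 to 509 in Hip HT and 408 to 568 in Hip WT (log2 -0.03, SE 0.08). Of 20 other interferon-induced genes, such as Ifit1, Isg15 and Irf7, 0 were called in each region and in the average. In PFC, hippocampus, striatum and the average 1, 1, 1 and 2 of the 20 had an unadjusted p under 0.05. The shares of all genes were 5.0%, 6.81%, 5.89% and 9.37%. The median log2 difference of the 20 was 0.04 in PFC, -0.01 in hippocampus and 0.01 in striatum.

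Neighbours were also grouped by role in broad classes, which some members fit only loosely. Examples are Cys1 among the enzymes, Tmem18 in matrix and transport, and Sntg2 and Itgb1bp1 in membrane traffic. The pseudogene Zfp125 stands among the transcription regulators. No class held a gene called between HT and WT, and in the average over regions each class had members on both sides of 0. There 5 of 13 tested transcription regulators (among them Sox11, Id2, Klf11, Ahr and Etv1) lay above 0 and 8 below, with a median log2 difference of -0.02. Of 11 membrane traffic genes 7 lay above and 4 below (median 0.00), and of 11 signalling genes 3 lay above and 8 below (median -0.03). Of 13 metabolic and nucleic acid enzymes 5 lay above and 8 below (median -0.01), and of 5 matrix and transport genes 2 above and 3 below (median -0.06). Over all genes tested 8206 lay above and 8845 below. In striatum the split was more to the lower side, with 26 of 79 tested members above 0 and 53 below (all genes 8258 and 8796). There 2 transcription regulators lay above and 10 below, 3 membrane traffic genes above and 8 below, and 1 signalling gene above and 9 below, with median log2 differences of -0.03, -0.03 and -0.06. Of the enzymes 4 lay above and 8 below (median -0.04). The matrix and transport genes went the other way, with 3 above and 2 below (median 0.03). Tissue marker lists leaned both ways in striatum. Meninges markers had 0 above and 6 below, choroid plexus 0 and 8, astrocytes 4 and 1, and oligodendrocytes 5 and 1. None of these markers was called, and a difference in tissue content between HT and WT was not tested. In hippocampus 8 signalling genes lay above and 3 below.

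The letters AAAGTTT, the core of the DNA word that MYT1 family zinc fingers are known to bind, were searched on both strands in the 250 bases before each RefSeq start. RefSeq windows matched 65 of the 88 members. A match stood in 5 of 77 member windows (6.49%), those of Lamb1, Dld, Dus4l, Hbp1 and Twist1, and in 4.20% of all windows. The matches are shown with their flanks in capitals on the strand of the gene, with AAACTTT as the reverse complement, since they are what the search counted.
Lamb1, chr12:31265266-31265292, plus strand: cctccctaggcgAAACTTTctaattcc
Dld, chr12:31351662-31351692, minus strand: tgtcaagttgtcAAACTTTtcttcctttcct
Dld, chr12:31351639-31351669, minus strand: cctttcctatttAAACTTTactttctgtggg
Dus4l, chr12:31655050-31655076, minus strand: agacaggaAAACTTTgtgcaaagtgac
Hbp1, chr12:31950459-31950489, minus strand: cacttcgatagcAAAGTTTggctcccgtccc
Twist1, chr12:33957524-33957554, plus strand: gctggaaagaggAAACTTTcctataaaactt
Twist1, chr12:33957590-33957620, plus strand: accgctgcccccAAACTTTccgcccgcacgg
In these 5 genes the averaged log2 difference between HT and WT was -0.07 (SE 0.06) for Lamb1, a laminin chain, 0.01 (SE 0.03) for Dld, a mitochondrial dehydrogenase, and 0.03 (SE 0.12) for Dus4l, a tRNA-modifying enzyme. It was 0.06 (SE 0.05) for Hbp1, a repressor of cell cycle genes, and 0.04 (SE 0.18) for Twist1, a mesenchymal transcription factor. None passed the test, with an adjusted p of at least 0.777. Of the exon bases of Hbp1, 24.6% overlap Cog5 on the opposite strand, and reads there cannot be told apart. A match is a description of letters and was not tested as a binding site.

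No member passed the test of whether its genotype difference differed between regions. The 3 interaction contrasts called 0 of 82 members each, against 0.0% of 17051 genes each, with 4, 1 and 3 members at an unadjusted p under 0.05 in PFC against hippocampus, PFC against striatum and hippocampus against striatum (4.09%, 3.92% and 4.03% of all genes). The smallest p was of Alkal2, a ligand of the ALK receptor, whose difference was 1.13 higher in hippocampus than in striatum (SE 0.35, unadjusted p = 0.00292, adjusted p = 0.999). For Gm20208 the difference in PFC was 1.12 above that in hippocampus (SE 0.42, adjusted p = 1.00).

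Many neighbours differed between brain regions of WT libraries, in shares near those of all genes for the pairs with striatum. Of 84 members tested, 48 were called between PFC and hippocampus (17 higher in PFC, 31 lower), 46 between PFC and striatum (23 and 23) and 42 between hippocampus and striatum (24 higher in hippocampus, 18 lower). That is 57.1%, 54.8% and 50% of the members, beside 46.8%, 57.0% and 48.0% of all 17017 genes. By direction, 22.9% of all genes were higher in PFC and 23.9% lower for the first pair, 27.8% and 29.2% for the second, and 23.9% higher in hippocampus and 24.1% lower for the third. In at least 1 pair 59 members were called (70.2%, all genes 72.3%), and in all 3 pairs 24 were (28.6%, all genes 20.6%). Scaling the libraries to equal totals moved the median of all genes by -0.14 for PFC against striatum, -0.09 for PFC against hippocampus and -0.05 for hippocampus against striatum, and reversed the direction of 0 called members.

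**Figure D5:**
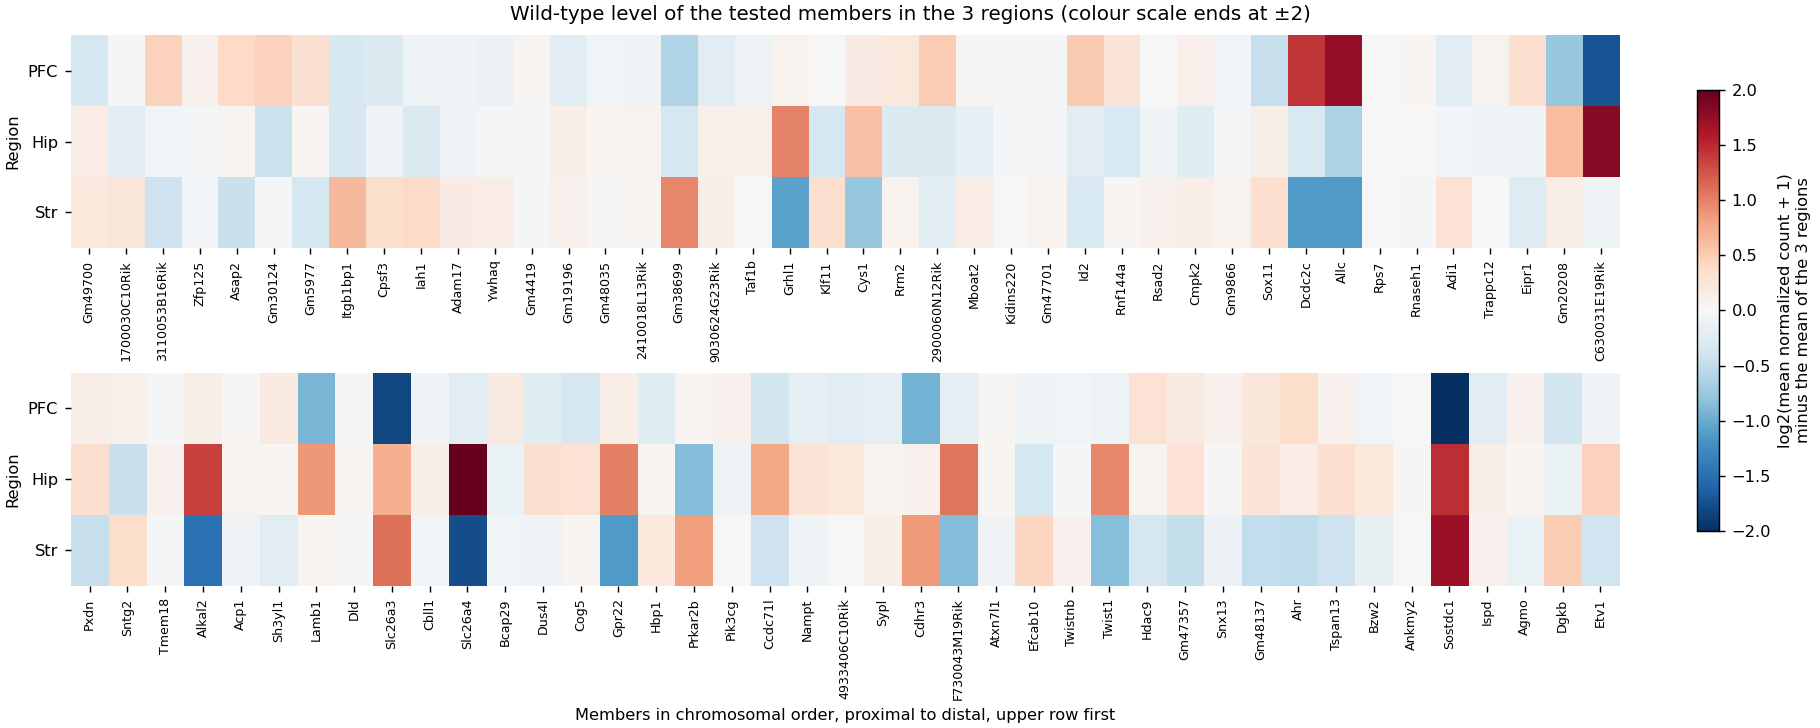
Level of 83 of the 84 tested members in WT libraries of PFC, hippocampus and striatum (rows), as log2 of the mean normalized count + 1 minus the mean of the 3 regions (colour, red above and blue below), in chromosomal order from proximal to distal (columns, upper panel first). Neighbouring columns often differ in colour, and the deepest colours are of Sostdc1, Slc26a4, C630031E19Rik, Slc26a3 and Allc.

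Higher in PFC than in both other regions were 10 members: Asap2, Id2, Rnf144a, Dcdc2c, Allc, Eipr1, Bcap29, Hdac9, 3110053B16Rik and 2900060N12Rik. They are 11.9% of the members tested, and 14.8% of all genes met the same rule. Under equal totals 7 of the 10 remained, without Rnf144a, Bcap29 and Dcdc2c. Allc, allantoicase, was at 18.1, 26.6 and 36.6 (lowest, median, highest) in PFC, 1.75, 3.6 and 9.09 in hippocampus and 0.917, 2.60 and 6.00 in striatum, and every PFC library was above every other. Its log2 difference was 2.48 (SE 0.39, adjusted p = 1.42e-05) over hippocampus and 2.98 (SE 0.39, adjusted p = 7.37e-07) over striatum. Dcdc2c, its neighbour and a doublecortin domain gene, was at 9.57 to 36.8 in PFC and at most 12.7 in hippocampus (log2 2.01, SE 0.51). Id2, an inhibitor of helix-loop-helix factors, was at 2842 ± 145 in PFC, 1717 ± 69.0 in hippocampus and 1598 ± 237 in striatum (SD, n = 6 each). The deacetylase Hdac9 was at 1436 ± 95.1, 1216 ± 101 and 926 ± 60.6.

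Higher in hippocampus than in both others were 18 members (21.4%, against 9.42% of all genes). They were Grhl1, Cys1, C630031E19Rik, Pxdn, Alkal2, Lamb1, Cbll1, Slc26a4, Dus4l, Cog5, Gpr22, Ccdc71l, Nampt, F730043M19Rik, Twist1, Tspan13, Bzw2 and Etv1, and all but Cbll1 remained under equal totals. Slc26a4 (pendrin, an anion exchanger) was at 309, 377 and 467 in hippocampus, 48.1, 87.0 and 95.7 in PFC and 12.7, 20.2 and 65.0 in striatum. Its log2 difference between hippocampus and striatum, 4.00 (SE 0.28, adjusted p = 1.22e-10), was the largest of the members for that pair. Alkal2 was at 76.8 to 104 in hippocampus, 31.6 to 41.1 in PFC and 7.33 to 16.2 in striatum, with no overlap between any regions. Of its exon bases 35.1% overlap Acp1 on the opposite strand, whose reads cannot be told apart from its own there.

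The orphan receptor Gpr22 showed the same order, at 2821 ± 296 in hippocampus, 1543 ± 94.3 in PFC and 638 ± 138 in striatum (SD, n = 6 each). So did the grainyhead factor Grhl1, at 780 ± 62.3, 409 ± 41.6 and 185 ± 22.9, and the cilium protein Cys1, at 406 ± 19.0, 303 ± 22.8 and 159 ± 20.9. Lamb1 was at 1200 ± 63.6 in hippocampus, 348 ± 69.1 in PFC and 686 ± 50.8 in striatum, so here PFC was lowest. C630031E19Rik, inside Myt1l, was at 31.2 to 69.0 in hippocampus, 1.17 to 6.06 in PFC and 3.25 to 21.4 in striatum (log2 PFC minus hippocampus -3.58, SE 0.37, adjusted p = 3.77e-08).

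Higher in striatum than in both others were 13 members (15.5%, against 16.2% of all genes): Itgb1bp1, Cpsf3, Iah1, Adam17, Ywhaq, Gm38699, Klf11, Sox11, Adi1, Prkar2b, Cdhr3, Efcab10 and Dgkb. All 13 remained under equal totals, which added Cmpk2, Mboat2 and Sntg2, and Klf11 was lost without the WT library coded 31-67M. Prkar2b, the RII beta regulatory subunit of protein kinase A, was at 3142, 3232 and 3504 in striatum, 1754, 1855 and 2020 in PFC and 935, 977 and 1186 in hippocampus, with no overlap. Its log2 difference was -1.69 (SE 0.05, adjusted p = 6.7e-17) for hippocampus against striatum and 0.89 (SE 0.05, adjusted p = 6.94e-12) for PFC against hippocampus. Dgkb, diacylglycerol kinase beta, was at 9219 ± 763 in striatum, 5904 ± 568 in hippocampus and 5025 ± 409 in PFC. Cdhr3, a cadherin-related protein of ciliated cells, was at 86.2 to 196 in striatum and 16.3 to 45.7 in PFC (log2 PFC minus striatum -1.82, SE 0.23). For hippocampus against striatum the log2 difference was -1.35 (SE 0.28) for the pseudogene Gm38699, which had few counts. Sox11 was at 763 ± 66.8, 651 ± 62.6 and 438 ± 52.2 in the same order. Adi1 was at 871 ± 78, 681 ± 43.0 and 604 ± 27.8.

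Sostdc1 and Slc26a3 were low in PFC. Sostdc1, a secreted antagonist of BMP and Wnt signals, was at 1.01 to 12.8 in PFC, 48.0 to 350 in hippocampus and 127 to 552 in striatum, and the log2 difference was -4.68 (SE 0.50) for PFC against hippocampus and -4.96 (SE 0.50, adjusted p = 8.72e-08) for PFC against striatum. Slc26a3, a chloride exchanger, was at 0 to 5.25, 4.03 to 37 and 7.76 to 34.6. The summed level of 8 choroid plexus markers (Ttr, Folr1, Kcnj13 and others, all 8 in the table) was 159 to 243 in PFC WT, 2341 to 67120 in Hip WT and 23665 to 91751 in Str WT. The Hip WT library lowest in that sum (2341) was also lowest in Sostdc1 (48.0), and the Str WT library highest in it (91751) was highest in Sostdc1 (552). The part of choroid plexus RNA in the levels of both genes was not tested.

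Of the 84 members, 25 were called in no pair of regions. Kidins220, a scaffold of neurotrophin receptors, was at 10496 ± 468 in PFC, 10156 ± 211 in hippocampus and 10282 ± 382 in striatum (SD, n = 6 each). Its log2 difference between PFC and hippocampus was 0.05 (SE 0.03, adjusted p = 0.267). Rps7, Rnaseh1, Dld, Acp1, Ankmy2 and Atxn7l1 were also among the 25. On the scale of normalized counts per kb of exon, WT means spanned a wide range, with Ywhaq, the 14-3-3 theta protein, at 2759 in PFC, 2939 in hippocampus and 3300 in striatum, Kidins220 at 1211, 1172 and 1186, and Gm20208 at 8.12, 21.8 and 15.5.

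Head-to-head neighbours, which start on opposite strands within 1 kb of each other, did not always share a regional pattern. Among 8 such pairs, Dus4l and Cog5, a Golgi tethering subunit, start 43 bases apart and were both called higher in hippocampus. Dus4l was at 154 ± 23.4 in hippocampus and 105 ± 13.8 in PFC (log2 PFC minus hippocampus -0.55, SE 0.15), and Cog5 at 1659 ± 93.5 and 1078 ± 46.3 (-0.62, SE 0.04). Of the exon bases of Cog5, 24.0% overlap Hbp1 on the opposite strand, whose reads cannot be told apart from its own there. Acp1, a low-weight tyrosine phosphatase, and Sh3yl1, a lipid-binding adaptor, start 79 bases apart. Acp1 was called in no pair, and Sh3yl1 was higher in PFC than in striatum, at 220 ± 14.8 and 168 ± 26.4 (log2 0.40, SE 0.10). The stretches between the RefSeq starts of both pairs are shown because they lie between the paired starts, and RefSeq starts can differ from the GENCODE starts used for the gaps (GRCm38.p6, plus strand, chr12:31654827-31654868 and chr12:30911613-30911668).
Dus4l/Cog5: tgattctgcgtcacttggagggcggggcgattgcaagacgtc
Acp1/Sh3yl1: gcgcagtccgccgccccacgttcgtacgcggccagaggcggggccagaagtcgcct
The 42 bases between Dus4l and Cog5 hold 4 CpG dinucleotides and the 56 between Acp1 and Sh3yl1 hold 9. In the pair F730043M19Rik and Atxn7l1 the first was at 1075 ± 179 in hippocampus, 445 ± 65.8 in PFC and 280 ± 51.4 in striatum, while Atxn7l1, 96 bases away, was at 753 ± 43.6, 741 ± 25.9 and 699 ± 47.0. Itgb1bp1 and Cpsf3 were both highest in striatum, at 769 ± 66.1 and 1370 ± 80.0, and 196 bases of their exons overlap. Between HT and WT none of the 16 genes in these pairs passed the test.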

How the data were processed

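The deposited table holds signal values per gene that are not whole. They were taken as scaled read counts because the library sums are near equal. How they were scaled is not given in the sources used here. Per the submitters' processing notes, the genome build was GRCm38, and the tools listed, without their roles, include DESeq2 (1.26.0) under R (3.6.2) besides Salmon (1.1.0). Depth before scaling is unknown, so no counting interval is given.

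Whole reads could not be recovered, so values were tested as log2(value + 1) with limma 3.58.1 (R 4.3.3, trend and robust) over all genes with a mean of at least 10, 2-sided, with Benjamini-Hochberg adjustment over all of them at 0.05. Genotype was tested within each region on its own libraries. The average over regions, the interactions and the WT region contrasts used all libraries concerned, with the column code as a block (correlation 0.0429 in the genotype fit and 0.0241 in the WT fit). Every adjusted and unadjusted p printed for a gene comes from these limma fits. The steps were tested on simulated data with normal noise. Only increases were planted there, in genes with higher counts, so decreases and low counts were not covered.

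Distances run from the GENCODE M21 gene start to the nearest edge of Myt1l, and sequences are from RefSeq tables (GRCm38.p6). Members and lists were chosen with earlier results of these data known. Genes named were the 5 tested members nearest to Myt1l on each side, the 3 smallest p in each direction of each genotype comparison, the 3 largest called differences in each direction between WT regions, head-to-head pairs and role groups, except 1 member whose values are not reported here. Other names, among them Rsad2, Id2, Kidins220, Sox11 in WT and the members with an AAAGTTT match, were chosen after their values were seen.

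Alternatives were another pseudocount (5), no filter, a mean of at least 50, equal library totals, other moderation, other blocks, subsets by code and leaving out each library.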

Additional observations from a re-analysis of the deposited data

Results flagged for a closer look

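In 30 of 366 sets of 1 gene and 1 group (8.20%), 1 library stood far from the others by Dixon's 95% criterion. For independent values of normal spread that happens in about 1 of 20 sets. The values were not logged, and several sets draw on the same library, so these shares are not a test for an excess. All values are normalized counts.

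These libraries were high in their group. 2410018L13Rik in Str HT replicate 2 was at 105, beside 50.4 to 69.6 in the rest of its group. For 2900060N12Rik, Hip HT replicate 2 stood at 106 and the other libraries at 47.2 to 59.6. PFC HT replicate 4 had 114 for 3110053B16Rik, while its group otherwise spanned 81.2 to 89.9. Cpsf3 in Hip WT replicate 1 was at 1166, beside 928 to 1017 in the rest of its group. For Cys1, Str HT replicate 1 stood at 183 and the other libraries at 152 to 160. Str HT replicate 2 had 21.4 for Dcdc2c, while its group otherwise spanned 0 to 3.57. Dus4l in PFC HT replicate 5 was at 212, beside 79.7 to 110 in the rest of its group. For Eipr1, PFC HT replicate 2 stood at 1195 and the other libraries at 1015 to 1062. Hip WT replicate 1 had 1415 for F730043M19Rik, while its group otherwise spanned 934 to 1102. Id2 in Hip WT replicate 1 was at 1854, beside 1668 to 1718 in the rest of its group. For Klf11, Str WT replicate 3 stood at 259 and the other libraries at 173 to 205. Str WT replicate 5 had 3504 for Prkar2b, while its group otherwise spanned 3142 to 3263. Rrm2 in Str WT replicate 5 was at 88.1, beside 39.9 to 55.2 in the rest of its group. For Rsad2, PFC HT replicate 4 stood at 98.5 and the other libraries at 28.5 to 36.4. Str HT replicate 3 had 187 for Sh3yl1, while its group otherwise spanned 152 to 164. Slc26a3 in Str HT replicate 6 was at 35.6, beside 14.8 to 19.2 in the rest of its group. For Slc26a4, Str WT replicate 1 stood at 65 and the other libraries at 12.7 to 30.9. Str WT replicate 2 had 552 for Sostdc1, while its group otherwise spanned 127 to 268.

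These libraries were low in their group. Adi1 in Str HT replicate 1 was at 696, beside 850 to 888 in the rest of its group. For Adi1, Str WT replicate 1 stood at 717 and the other libraries at 879 to 931. Str HT replicate 1 had 619 for Atxn7l1, while its group otherwise spanned 718 to 749. Cpsf3 in PFC HT replicate 3 was at 775, beside 858 to 878 in the rest of its group. For Cpsf3, Str HT replicate 1 stood at 1184 and the other libraries at 1340 to 1413. PFC WT replicate 6 had 326 for Grhl1, while its group otherwise spanned 411 to 437. Hbp1 in Hip HT replicate 2 was at 655, beside 723 to 746 in the rest of its group. For Kidins220, PFC WT replicate 2 stood at 9590 and the other libraries at 10484 to 10891. Str HT replicate 4 had 141 for Klf11, while its group otherwise spanned 195 to 206. Slc26a4 in PFC WT replicate 6 was at 48.1, beside 81.2 to 95.7 in the rest of its group. For Sypl, Hip WT replicate 1 stood at 1134 and the other libraries at 1321 to 1367. PFC WT replicate 2 had 863 for Tmem18, while its group otherwise spanned 977 to 1020.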

How the results depend on the processing

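No member passed the threshold for HT against WT in 100 alternative limma fits, and the smallest adjusted p of any member over them was 0.195. Nor did one pass in 6 alternative fits of the difference between regions. Members at an unadjusted p under 0.05 numbered 0 to 2 in PFC, 4 to 8 in hippocampus, 1 to 4 in striatum and 2 to 9 in the average. Within 1 Mb of Myt1l that count was 1 in place of 2 with a mean of at least 50, and 0 to 3 over all alternatives, with 0 without PFC HT replicate 4 and without Str WT replicate 6. Over all genes the average called 16, beside 48 without the libraries coded 31-67M, 29 with no block, 37 with the replicate block, 9 among codes beginning with 35, and 5 to 29 when 1 library was left out (5 without PFC HT replicate 5 or Hip HT replicate 5, 29 without PFC WT replicate 1). Deviations of same-numbered HT and WT samples of a region from the means of their own groups correlated at -0.10 to 0.12. For some HT samples the same-numbered WT sample was the closest by that measure. In PFC and striatum the column codes of such samples begin with the same number, and in hippocampus all but those of replicate 5 do. Whether same-numbered samples were paired is not known. With the replicate block 0 members were called in each genotype comparison, and 47, 44 and 42 between WT regions (PFC and hippocampus, PFC and striatum, hippocampus and striatum). Each of 1427 values of HT against WT, over 58 pairs of gene and comparison, kept its side of the threshold. Direction was not always kept for differences near 0. The log2 difference of Tmem18 in hippocampus was 0.002 in the main fit and -0.01 without the libraries coded 31-67M. For members higher in 1 WT region than in both others, losses under equal totals or without the WT library coded 31-67M are given with those members. Other calls lost between WT regions are not named. Low counts limit many noncoding members and some protein coding ones, such as Allc and Dcdc2c.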

Other observations

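Adi1, the methionine salvage enzyme, was lowest in striatum in the 2 libraries whose column code begins with 31, at 696 in HT and 717 in WT, while the other 10 striatum libraries lay between 850 and 931. The cause was not tested.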
